A study of Mus musculus with 6 samples.

Results

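The genes that carry, convert and sense thyroid hormone were examined in mouse liver: the receptors Thra and Thrb, the deiodinases Dio1 and Dio3, the plasma carriers Ttr and Serpina7, and the iodotyrosine deiodinase Iyd. Members were the non-control probes whose RefSeq accession on the array belongs to one of these genes, which gave 13 of 56605 probes and 7 of the 22911 genes with a named probe. Liver RNA came from male mice that were 12 weeks old when feeding began, 3 fed granulated regular chow (control) and 3 fed 75% regular chow with 25% soy bean (soy), ad libitum for 28 days. The strain is not given in the sources used here, and the labels name no transgene or drug in either group. Each mouse was measured on 1 Agilent array with 1 colour. Signals are given as normalized log2 intensity, in which 1 unit is a 2-fold difference, differences are soy minus control, and signals of different genes are not compared with each other. A probe passed when soy differed from control at an adjusted p under 0.05 (limma, Benjamini-Hochberg over all probes) with a fold change above 1.5 or under 0.66. A gene is given by its brightest probe, and the other probes are given beside it for the 7 genes.

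The thyroid secretes mainly thyroxine, which circulates bound to carrier proteins made in the liver and enters cells through membrane transporters. In the liver, deiodinase 1 removes an outer-ring iodine and yields triiodothyronine, the active hormone, whereas deiodinase 3 removes an inner-ring iodine and inactivates it. The receptors bind DNA mainly as heterodimers with retinoid X receptors, and THRB is the main receptor in hepatocytes.

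In the soy livers, the carrier gene Serpina7 was higher by value than in every control liver. So was the receptor gene Thra by its brightest probe, but not by its other probes. Dio1 was far lower in a single control liver than in any other. None of the 7 genes passed, where 0.458% of all genes did by the same rule. At an unadjusted p under 0.05, limma gave 2 of the 7, Thra and Serpina7, where it gave 14.2% of all genes. By value, 5 genes were higher and 2 lower in soy livers. The median difference was 0.13 (log2), beside -0.0057 over all genes, and it was 0.19 within slide 1 and 0.17 within slide 3. This median was not steady: it was 0.069 without control 3, 0.075 without soy 1, 0.21 without control 1 and 0.21 without soy 3, and 0.060 with the mean of a gene's probes and 0.32 with only probes well above background. Thra, Dio1 and Serpina7 were the 3 genes without overlap between the groups, all higher in soy, and 9.68% of all genes were higher in soy without overlap. The count was also 3 without control 2. Leaving out an array can only add to such a count, and the share of all genes was not computed for that setting. Of the 13 probes none passed, where 0.35% of all probes did, 4 were higher in soy without overlap (7.75% of all probes) and 1 was lower (10.3%). Spots well above background numbered 36366 to 38163 of 59305 on the control arrays and 31308 to 32498 on the soy arrays, and the part of this difference in the results was not tested.

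**Figure D1:**
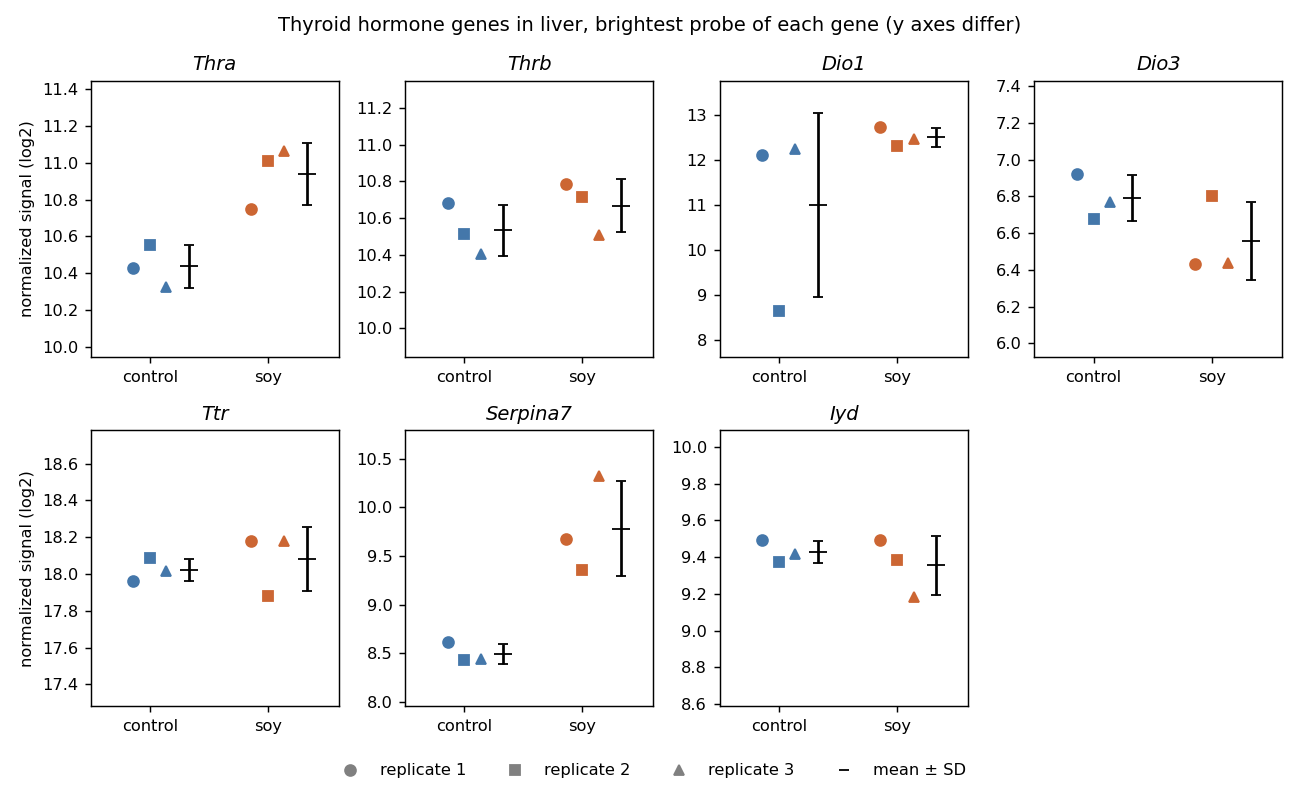
Normalized signal (log2, y axis) of the brightest probe of each of the 7 genes in control and soy livers, with 1 point per array and the mean ± SD of 3 arrays beside it. Serpina7 ranged from 8.43 to 8.61 in control and from 9.36 to 10.32 in soy livers, and Dio1 was 8.64 on control 2 against 12.11 and 12.24 on the other control arrays.

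Of the carriers, Serpina7 encodes thyroxine-binding globulin, a serine protease inhibitor family member without inhibitory activity that carries thyroxine in plasma. Its single probe (NM_177920) gave 8.61, 8.43 and 8.44 (log2) on control arrays 1 to 3 and 9.67, 9.36 and 10.32 on soy arrays 1 to 3. The lowest soy liver lay above the highest control liver, and the soy livers differed more among themselves (SD 0.49) than the control livers did (SD 0.10). The mean was 8.49 under the control diet and 9.78 under the soy diet, a difference of 1.29 (SE 0.23, 95% confidence interval 0.76 to 1.82), or 2.45-fold. With an adjusted p of 0.0760 from limma it lay just outside the threshold. The difference was 1.15 within slide 1 and 1.88 within slide 3. It was 1.26 without control 2 (adjusted p = 0.214) and 1.02 without soy 3, the highest liver (adjusted p = 0.0966). Serpina7 passed in 3 of 18 alternative settings, with adjusted p between 0.0120 and 0.214 over all of them.

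Ttr encodes transthyretin, a carrier of thyroxine and, with retinol-binding protein, of retinol. Its brighter probe (NM_013697) gave 17.96, 18.09 and 18.01 in control and 18.18, 17.88 and 18.18 in soy livers. The groups overlapped, and the difference was 0.059 (SE 0.12, 95% confidence interval -0.21 to 0.33, adjusted p = 0.886 from limma). With 1 array left out it lay between 0.0089 (without soy 1 or soy 3) and 0.16 (without soy 2). The dimmer probe for the same accession gave 14.33, 14.03 and 13.93 in control and 13.69, 13.75 and 13.67 in soy livers, without overlap and in the other direction. Its difference was -0.39 (SE 0.13, adjusted p = 0.287), so that the probes of Ttr differ in direction. No spot of either probe was saturated. Alb, the abundant plasma protein that also carries thyroxine, had a difference of -0.14 (SE 0.11, adjusted p = 0.692). Soy 3 had the lowest Alb signal (18.66) and the other 5 arrays lay between 18.93 and 19.02. Alb had the same value (18.99) on control 1, control 2 and soy 1, as the brighter Ttr probe had on soy 1 and soy 3. Quantile normalization sets values by rank within an array, so at this brightness the differences of both genes reflect rank. Without soy 3 the Alb difference was -0.041.

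Of the deiodinases, Dio1 was measured by 3 probes for the same accession (NM_007860). The brightest gave 12.11, 8.64 and 12.24 on control arrays 1 to 3 and 12.73, 12.31 and 12.46 on soy arrays 1 to 3. The second gave 11.34, 8.09 and 11.45 in control and 12.01, 11.53 and 11.54 in soy livers. The third gave 9.46, 7.23 and 9.85 in control and 9.97, 9.62 and 9.82 in soy livers. On all 3 probes control 2 was the lowest array, and the other 5 arrays lay close together. Relative to the mean of the other control arrays, control 2 was 11.6-fold, 9.85-fold and 5.39-fold lower on these probes. All 3 probes were well above background on every array, control 2 included.

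The size of the Dio1 difference between the diets depended on that liver. Over all arrays the brightest probe had a difference of 1.503 (SE 0.86, 95% confidence interval -0.51 to 3.51, adjusted p = 0.568 from limma). Without control 2 the difference was 0.32 (SE 0.16, adjusted p = 0.619). Within slide 1, which holds control 2, the difference was 2.36, and within slide 3 it was 0.21. The other probes had differences of 1.40 and 0.96, and of 0.30 and 0.15 without control 2.

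**Figure D2:**
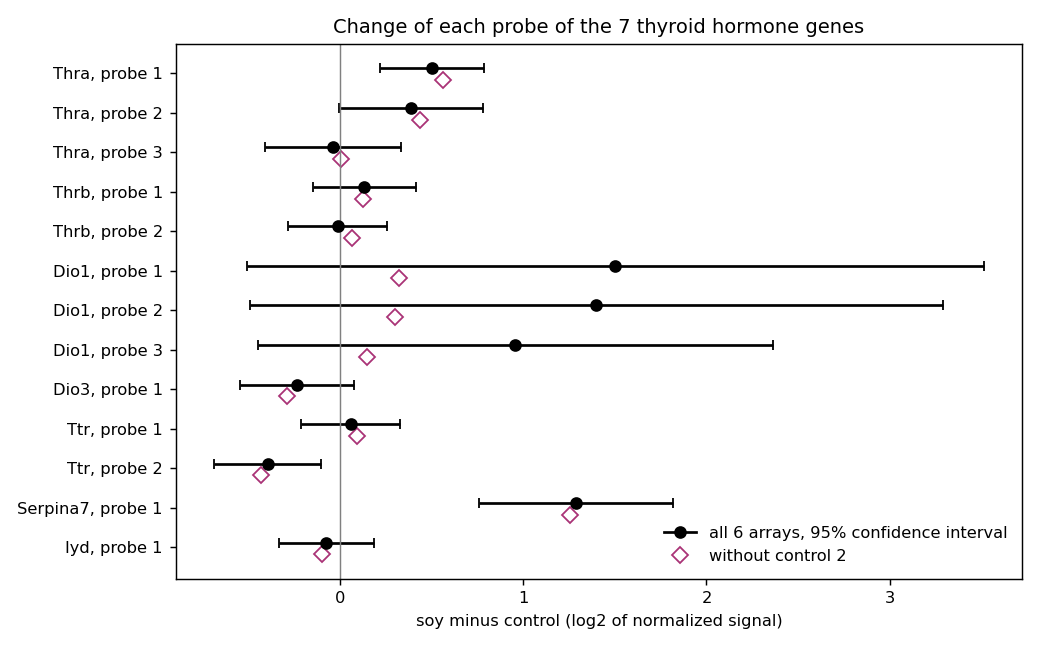
Change of each of the 13 probes between soy and control livers (x axis, log2, soy minus control), numbered within a gene from the brightest. Black points show all 6 arrays with 95% confidence intervals from limma, and open diamonds show the change without control 2; the 3 Dio1 probes moved from 1.503, 1.40 and 0.96 to 0.32, 0.30 and 0.15.

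Dio3 lies in an imprinted region and is known for its expression in placenta and fetal tissues. Its probe (NM_172119) was well above background in 2 of the 3 control livers and in no soy liver. It gave 6.92, 6.68 and 6.77 in control and 6.43, 6.80 and 6.44 in soy livers, with overlap. The mean was 6.79 (SD 0.12) in control and 6.56 (SD 0.21) in soy livers, both near background, with an adjusted p of 0.565 from limma. On no array was Dio2, the deiodinase known from brown fat and pituitary, well above background.

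Iyd recovers iodide from iodotyrosines. Its probe (NM_027391) gave 9.49, 9.38 and 9.42 under the control diet and 9.50, 9.39 and 9.18 under the soy diet, a difference of -0.074 (SE 0.11, 95% confidence interval -0.34 to 0.19, adjusted p = 0.846 from limma). The groups overlapped, with soy 3 the lowest array. Without soy 3 the difference was 0.012.

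The receptor gene Thra gives several protein isoforms, only some of which bind hormone, and its 3 probes share an accession (NM_178060), so the isoforms are not told apart here. The brightest gave 10.43, 10.55 and 10.33 in control and 10.75, 11.01 and 11.06 in soy livers. All soy arrays lay above all control arrays, with a difference of 0.50 (SE 0.12, 95% confidence interval 0.22 to 0.79), or 1.42-fold, and an adjusted p of 0.165 from limma. The difference was 0.26 within slide 1 and 0.74 within slide 3. The second probe had a difference of 0.39 (SE 0.17, adjusted p = 0.439) with overlap. The dimmest had a difference of -0.039 (SE 0.16, adjusted p = 0.949), and was well above background on 2 of 3 soy arrays. Nr1d1, which encodes the circadian repressor REV-ERBalpha, overlaps Thra in the annotation. Nr1d1 gave 10.04, 10.13 and 10.73 under the control diet and 8.41, 9.43 and 8.29 under the soy diet, a difference of -1.58 (SE 0.32, adjusted p = 0.106) without overlap. Nr1d1 was looked at because of its position and after the values of Thra were known.

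Thrb was measured by 2 probes (NM_009380). The brighter gave 10.68, 10.51 and 10.41 in control and 10.78, 10.71 and 10.51 in soy livers. The groups overlapped, and the difference was 0.13 (SE 0.12, 95% confidence interval -0.15 to 0.42, adjusted p = 0.725 from limma). With 1 array left out it lay between 0.069 (without control 3) and 0.21 (without soy 3). The dimmer probe had a difference of -0.013 (SE 0.12, 95% confidence interval -0.28 to 0.26).

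For each gene that was well above background on all 6 arrays, the gene with the most similar profile was taken from 13497 others by Pearson's r over the 6 arrays, as a description. The 6 arrays are few beside the number of genes searched. Serpina7 was closest to Eipr1 (0.997), Thra to Bax (0.997), Thrb to Cdkn2b (0.993), Ttr to Ap4m1 (0.990) and Iyd to Gucy2d (0.989). Dio1 was closest to Ifi208 (0.997), which gave 11.53 on control 2 and between 12.65 and 12.89 on the other 5 arrays.

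RefSeq promoter windows (GRCm38.p6, from 250 bases before to 50 after the start of a transcript) were searched for 5 of the 7 genes, 7 windows in all, those of Serpina7 overlapping each other. Ttr was left out of the search, and no window was available for Thra. AGGTCA, the core to which thyroid hormone receptors and other nuclear receptors bind, was searched on both strands and found in 1 window, that of a Thrb transcript, where 16.3% of all windows hold it. GTTAAT, a core of the HNF1 site of liver genes, was added after the sequences had been read. It was found in both Serpina7 windows, as the same match, and in a Thrb window, where 7.1% of all windows hold it. The stretches below come from the promoters of the gene with the receptor core and of the genes with the largest differences, with the core in capitals. They are given 5′ to 3′ on the strand of the gene, and neither core was found in the Dio1 window.
Thrb, chr14:17660750-17660809, plus strand, 210 to 151 bases before the start: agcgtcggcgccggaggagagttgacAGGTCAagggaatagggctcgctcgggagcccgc
Serpina7, chrX:139085237-139085336, minus strand, 100 to 1 bases before the start: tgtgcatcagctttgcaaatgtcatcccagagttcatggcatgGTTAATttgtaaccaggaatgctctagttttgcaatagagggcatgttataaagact
Dio1, chr4:107307169-107307268, minus strand, 100 to 1 bases before the start: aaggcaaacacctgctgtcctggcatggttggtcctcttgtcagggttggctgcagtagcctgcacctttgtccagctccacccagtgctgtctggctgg
A match to such a short core is a description of the sequence, and binding was not measured.

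Since Dio1 was so low on control 2, the other genes were searched for the same pattern, after this value had been seen. Among 13893 genes that were well above background on at least 5 arrays, 8 were at least 4-fold lower on control 2 than on every other array, Dio1 among them. The other arrays had 0 to 2 such genes each. The gap was widest for B4galnt1, which encodes a ganglioside synthase and gave 6.69 on control 2 and between 11.48 and 12.17 on the other arrays. Moxd1, a monooxygenase family member, gave 6.70 against 10.11 to 12.31, and Ifi202b, an interferon-inducible gene, gave 6.13 against 8.96 to 10.37. Klhl32 gave 8.26 against 10.31 to 11.94. Ugt1a10, of the glucuronosyltransferase family, gave 8.88 against 11.38 to 11.88. Cyp4a31 (11.82 against 14.18 to 15.85) and Cyp4a10 (10.99 against 13.06 to 15.09) encode fatty acid hydroxylases. For Dio1, Ugt1a10, Cyp4a31, Cyp4a10 and Klhl32, all soy arrays also lay above control 1 and control 3. Members of the Ugt1a and Cyp4a families share sequence, so their probes may not be specific. Among the same genes, none was higher on control 2 by this margin, where the other arrays had 1 to 4. Outside them, the thyroid transcription factor gene Pax8 was well above background only on control 2, with 9.08 against 6.27 to 6.49 on the other arrays. The red cell gene Alas2 gave 11.43 on control 2 against 13.29 to 13.96. Control 2 had 36366 spots well above background, between soy arrays (31308 to 32498) and the other control arrays (37010 and 38163).

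**Figure D3:**
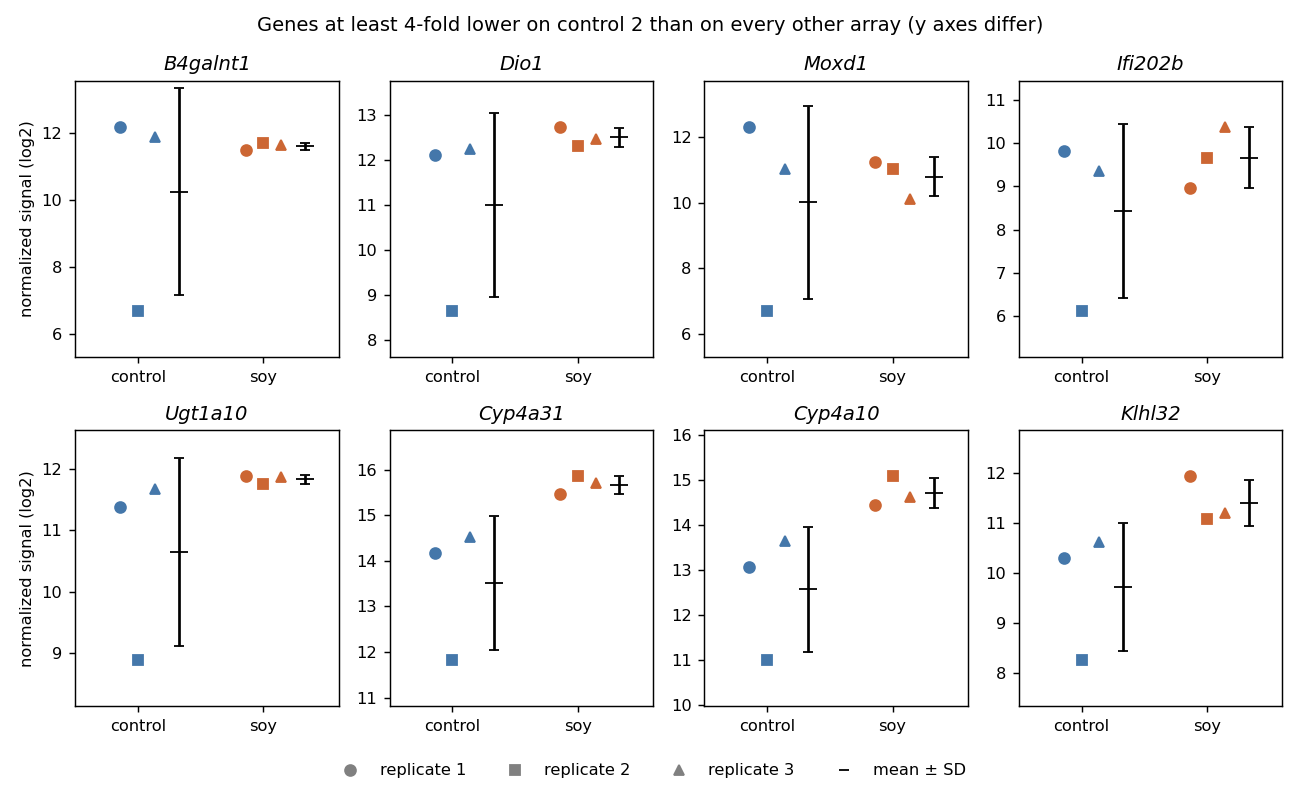
Normalized signal (log2, y axis) of the 8 genes that were at least 4-fold lower on control 2 (square, left) than on every other array, with 1 point per array and the mean ± SD of 3 arrays. Control 2 gave 6.69 for B4galnt1 and 8.64 for Dio1, and the other 5 arrays lay above 11.4 and 12.1.

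The pathway around these genes was described by 7 lists from general knowledge of thyroid hormone biology, which hold 70 genes, of which 66 had a named probe. Of these, 1 passed (Rxrg, higher), where 0.458% of all genes did. The values of 9 genes were higher and of 13 lower in soy without overlap, where 9.68% and 10.8% of all genes were. At an unadjusted p under 0.05, limma gave 17 of the 66, where it gave 14.2% of all genes.

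**Figure D4:**
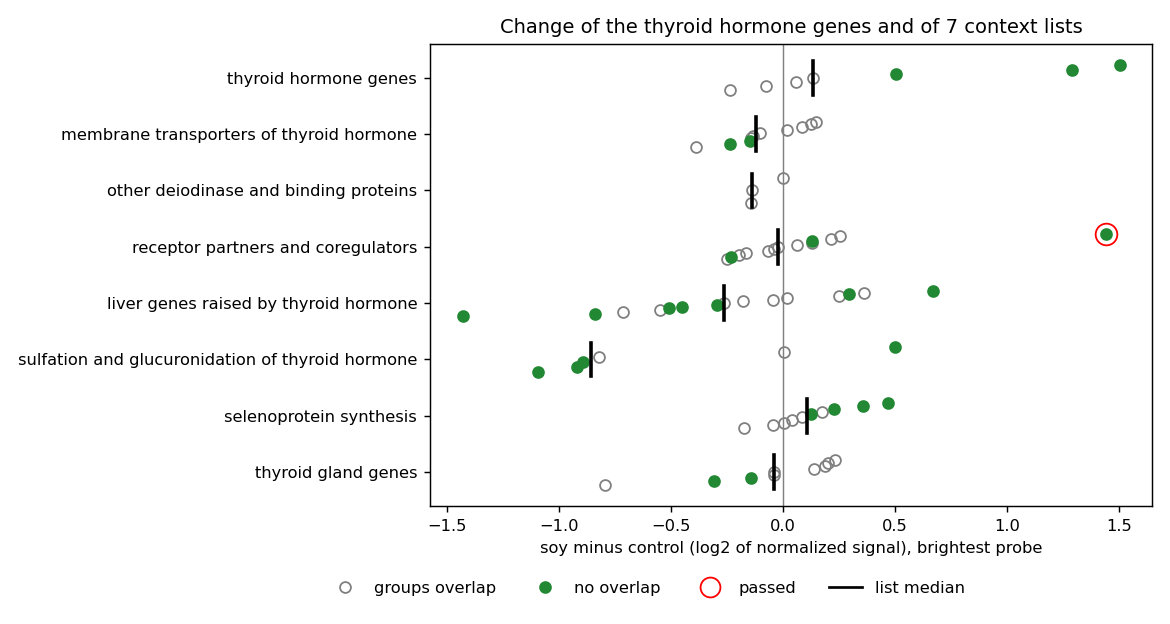
Change between soy and control livers (x axis, log2, soy minus control) of the 7 thyroid hormone genes and of the genes of 7 lists, by brightest probe, with a line at the median of each list. Filled points had no overlap between the groups, and the circled point is Rxrg, which passed; the medians ranged from -0.86 for the conjugating enzymes to 0.13 for the thyroid hormone genes.

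Rxrg encodes a retinoid X receptor, a partner with which thyroid hormone receptors bind DNA. It gave 7.85, 8.18 and 8.34 in control and 9.34, 9.87 and 9.50 in soy livers, with no overlap, and rose by 1.44 (SE 0.18, adjusted p = 0.0294 from limma), or 2.72-fold. With 1 array left out, it passed only without control 3. It did not pass without control 1 (adjusted p = 0.0656), control 2 (0.0971), soy 1 (0.0662), soy 2 (0.0956) or soy 3 (0.105), nor with the slide as a block (1.25, adjusted p = 0.111) or a normexp offset of 16 (1.57, adjusted p = 0.0545). The other 12 genes of the list of receptor partners and coregulators did not pass, with differences between -0.25 for the coactivator Ncoa2 and 0.26 for the corepressor subunit Tbl1x. Rxra, the main retinoid X receptor of hepatocytes, had a difference of -0.039 (SE 0.10), and the corepressor Ncor1, which silences target genes without hormone, one of -0.023 (SE 0.10).

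Sulfation and glucuronidation prepare thyroid hormone for breakdown and for excretion in bile. None of the 6 measured genes passed, and limma gave 5 of them at an unadjusted p under 0.05 (14.2% of all genes). The median difference was -0.86, with 3 genes lower (10.8% of all genes) and 1 higher (9.68%) without overlap. Sult1a1, the phenol sulfotransferase, gave 16.26, 16.44 and 16.61 in control and 15.71, 15.26 and 15.65 in soy livers. Its difference was -0.89 (SE 0.15, adjusted p = 0.0729), while its dimmer probe passed with -0.94 (adjusted p = 0.0331). Sult1d1 gave 13.81, 13.89 and 13.44 under the control diet and 12.97, 12.58 and 12.83 under the soy diet, a difference of -0.92 (SE 0.16, adjusted p = 0.0716). Every soy liver lay below every control liver for both genes. Sult1e1, the estrogen sulfotransferase, gave 7.94, 7.70 and 7.28 in control livers, whereas in none of the soy livers was it well above background. The signal was lower by at least 2.05-fold in the soy livers (adjusted p = 0.0750). With 1 array left out, it passed only without control 3 (adjusted p = 0.0490), and not without control 1 (0.155), control 2 (0.213), soy 1 (0.184), soy 2 (0.164) or soy 3 (0.212). Sult1e1 also passed with only probes well above background (adjusted p = 0.0394). With the processed signal, where 13138 probes passed, its difference was -2.49 (adjusted p = 0.0055). Sult1b1, which sulfates thyroid hormones, gave 12.18, 12.36 and 11.96 in control and 12.03, 11.20 and 10.80 in soy livers. Soy 1 lay within the control range, and the difference was -0.82 (SE 0.29, adjusted p = 0.336). Sult1c2 had a difference of 0.0056 (SE 0.17). Ugt1a6a, a glucuronosyltransferase, gave 8.13, 8.35 and 8.19 under the control diet and 8.73, 8.54 and 8.90 under the soy diet, a difference of 0.50 (SE 0.12, adjusted p = 0.176) in the other direction.

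**Figure D5:**
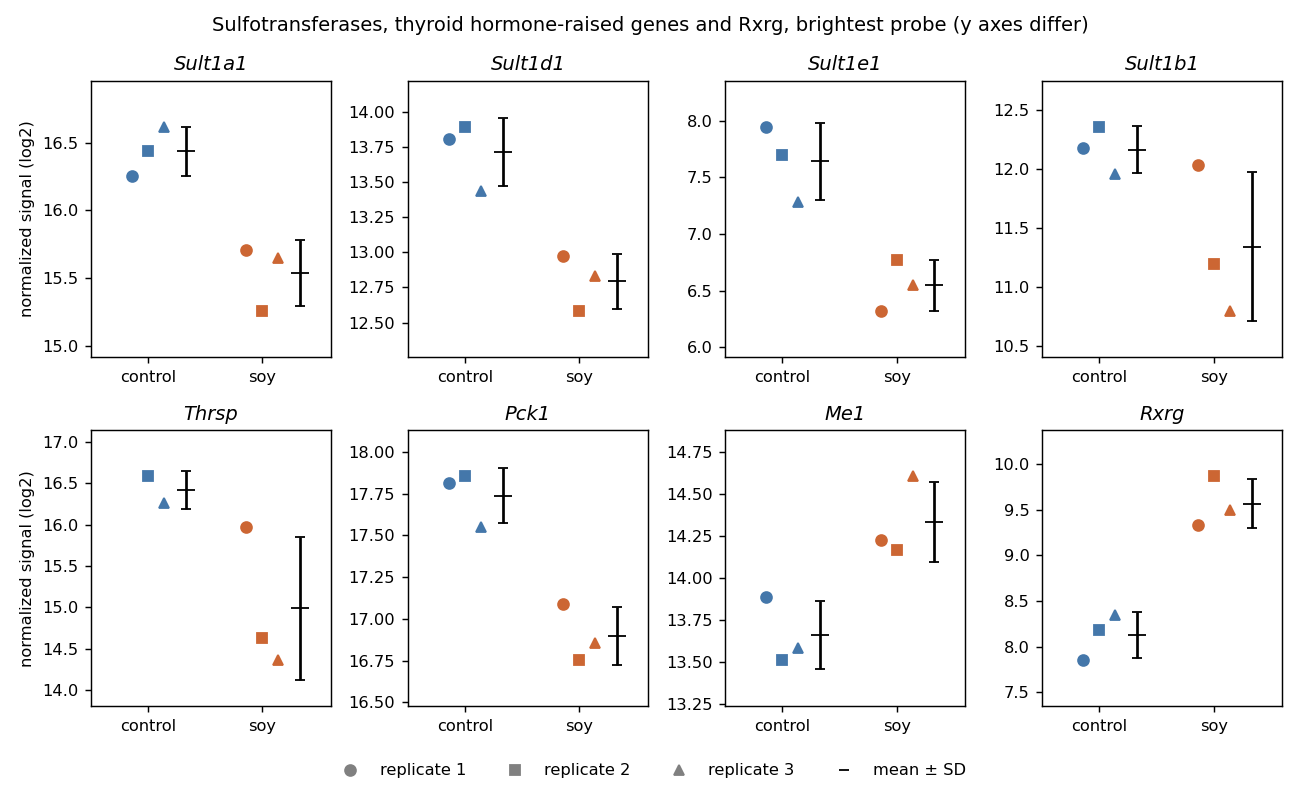
Normalized signal (log2, y axis) by array of 4 sulfotransferase genes, of 3 genes that thyroid hormone raises in liver and of Rxrg, with the mean ± SD of the arrays measured. Thrsp has no point for control 1, whose spot was marked as an outlier; Sult1a1 lay between 16.26 and 16.61 in control and between 15.26 and 15.71 in soy livers.

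Of 15 genes known to be raised by thyroid hormone in liver, none passed, and 8 had an unadjusted p under 0.05 with limma (14.2% of all genes). Their median difference was -0.26, with 5 lower (10.8% of all genes) and 2 higher (9.68%) in soy without overlap. Pck1, the gluconeogenic enzyme PEPCK, gave 17.81, 17.85 and 17.55 under the control diet and 17.09, 16.75 and 16.85 under the soy diet, a difference of -0.84 (SE 0.13, adjusted p = 0.0576). Thrsp, a lipogenic gene used as a marker of the hormone's action, gave 16.58 and 16.25 on control arrays 2 and 3 and 15.97, 14.63 and 14.36 in soy livers. Its difference was -1.43 (SE 0.45, adjusted p = 0.306), from a fit without control 1, where the spot was an outlier, so that its lack of overlap rests on 2 control arrays. With that spot kept the difference was -1.20 (adjusted p = 0.326), which puts control 1 below soy 1, so that the groups overlap and 4 genes of the list remain lower without overlap. G6pc, a glucose phosphatase, had a difference of -0.71 (SE 0.25, adjusted p = 0.324) with overlap. The malic enzyme gene Me1 lay the other way, with 13.89, 13.51 and 13.58 under the control diet and 14.23, 14.16 and 14.60 under the soy diet, a difference of 0.67 (SE 0.16, adjusted p = 0.153). By value, 5 genes of the list were higher and 10 lower. The difference was -0.29 (SE 0.14) for Klf9, a transcription factor, and 0.29 (SE 0.11) for Hr, a corepressor, both without overlap.

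The differences of the 10 membrane transporters lay between -0.39 and 0.15, and none passed or had an unadjusted p under 0.05. This range depended on control 2, without which the difference of the transporter Slco1a4 turned from -0.14 to 0.31. Without overlap, 2 were lower in soy (10.8% of all genes), Slc16a10 and Slc7a5, and 0 were higher (9.68%). The organic anion transporter Slco1b2 had a difference of 0.15 (SE 0.13, adjusted p = 0.716) and the bile acid transporter Slc10a1 one of 0.020 (SE 0.10, adjusted p = 0.959). Slc16a10 gave 11.42, 11.68 and 11.42 in control and 11.27, 11.29 and 11.25 in soy livers, without overlap, a difference of -0.24 (SE 0.11, adjusted p = 0.463). Without control 2, the highest array, the Slc16a10 difference was -0.15. For the amino acid transporters, the difference was -0.39 (SE 0.24) for Slc7a8 and -0.15 (SE 0.10) for Slc7a5. That of Slc7a8 was -0.62 without control 1, -0.21 without control 3 and -0.14 with the mean of its probes. That of Slc7a5 was -0.098 without soy 2. Crym, which binds triiodothyronine in the cytosol, had a difference of -0.14 (SE 0.30, adjusted p = 0.893).

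Deiodinases are selenoproteins, and the genes for selenoprotein synthesis and for other abundant selenoproteins were read for that reason. None of the 10 passed, 2 had an unadjusted p under 0.05 with limma (14.2% of all genes), and 4 were higher in soy without overlap (9.68% of all genes). Gpx4, a lipid hydroperoxide peroxidase, gave 15.52, 15.70 and 15.87 under the control diet and 16.26, 16.04 and 16.20 under the soy diet, a difference of 0.47 (SE 0.12, adjusted p = 0.193). Txnrd1, thioredoxin reductase, had a difference of 0.36 (SE 0.12, adjusted p = 0.298) and Secisbp2, which binds the selenocysteine insertion element, one of 0.23 (SE 0.14, adjusted p = 0.582). For Secisbp2, control 1 (9.60) lay below the other control arrays (10.02 and 10.03), and the difference was 0.087 without it.

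The tissue was checked with marker lists. All 8 hepatocyte markers were well above background on all 6 arrays, with a median difference of -0.22. Of 9 thyroid gland genes, 5 were well above background on no array, the thyroglobulin gene Tg, the iodide transporter gene Slc5a5 and the thyrotropin receptor gene Tshr among them. Slc26a4 was well above background on all 6 arrays, with a difference of 0.14 (SE 0.19), and that of Foxe1 was 0.19 (SE 0.22). No marker of the other cell types passed, and their median differences were 0.29 for 6 Kupffer cell, -0.061 for 5 endothelial cell, -0.083 for 5 stellate cell, -0.012 for 4 cholangiocyte, 0.33 for 3 red cell, -0.085 for 3 adipocyte and -0.42 for 4 pancreas markers. The red cell list had mean signals of 14.17, 13.14 and 14.45 in control and 13.99, 14.82 and 13.95 in soy livers, with control 2 the lowest. Its median difference was 0.12 within slide 1 and -0.64 within slide 3. Mean signals of the hepatocyte list were 17.23, 17.19 and 17.10 in control and 17.02, 16.93 and 16.83 in soy livers, without overlap. Those of the stellate cell list were 10.67, 10.20 and 10.23 in control and 10.16, 9.99 and 10.15 in soy livers, also without overlap. Those of the pancreas list were 8.79, 9.03 and 8.69 in control and 8.39, 8.51 and 8.44 in soy livers, also without overlap, with Ins2 well above background on no array. Cela1, an elastase gene of that list, gave 14.79, 15.43 and 15.16 in control and 14.32, 14.67 and 14.19 in soy livers. Col1a1, of the stellate cell list, gave 9.91, 8.53 and 8.95 in control and 7.85, 8.06 and 8.49 in soy livers, without overlap. The part of these shifts in the results was not tested. In whole-liver RNA, fewer cells of a type and less RNA per cell cannot be told apart.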

How the data were processed

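The authors deposited, per the file headers, 1-colour output of Agilent Feature Extraction 11.5.1.1, in which the spot and background intensity medians are neither corrected nor scaled. They also deposited a table of log2 values of the same arrays, with array medians of 7.33 or 7.34, which differed by at most 0.071 from the values computed here. Its background step is not given in the sources used here. The processed signal, an intensity after background subtraction, was used as an alternative.

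The methods name raw median signals and limma, but no background correction or normalization. Those steps were chosen here. The median signals were background corrected with normexp (offset 50), quantile normalized and put on the log2 scale. The spots of a probe were averaged after outliers had been dropped, with no filter on dim probes. Soy was tested against control with limma 3.58.1 in R 4.3.3 over 56605 probes, 32994 of which have a gene symbol through RefSeq accessions (GRCm38.p6). The array is annotated on mm9, so no probe positions are given. The fit was tested on simulated data. A fold against background is also given where a group was well above background on no array and the groups did not overlap. For it, that group's signals were raised to the lowest value well above background on each array. Control 1, control 2 and soy 1 lie on slide 1, soy 2 on slide 2, control 3 and soy 3 on slide 3, and each slide was scanned once. The number of arrays limits the precision.

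The genes, lists and tests were chosen with earlier results of these data known. Besides the 7 genes, each list is represented by its genes that passed or otherwise by the 3 largest changes, and further genes were named after their values were seen. Tables and plots used Python 3.11.15, pandas 2.3.3 and matplotlib 3.10.9.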

Additional observations from a re-analysis of the deposited data

How the results depend on the processing

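The number of probes that passed was 198 (118 higher, 80 lower in soy). It was 299 with a 75th-percentile shift, which moved the median change of all genes from -0.0057 to 0.11, 77 with a normexp offset of 16, 497 with only probes well above background tested, 25 with the slide as a block, 25 to 203 with 1 array left out, and 13138 (11924 higher, 1214 lower) with the processed signal. The share higher was 59.6% with the median signals and 90.8% with the processed signal. Of the 7 thyroid hormone genes 1, Serpina7, passed with the 75th-percentile shift (adjusted p = 0.0485), the processed signal (0.0120) and only probes well above background (0.0395), and none passed in the other settings, each left-out array included. The genes of the 7 lists that passed numbered 1 as reported, 3 with the 75th-percentile shift or with trend and robust settings, 2 with cyclic loess or the mean of a gene's probes, 0 with offset 16 or the slide block, 5 with only probes well above background, 10 with the processed signal and 0 to 2 with 1 array left out. For 24 genes, the 7 and those that represent the lists, 431 pairs of gene and setting were compared, of which 8 had the other sign. Alb turned to 0.033 with cyclic loess and to 0.0076 with the processed signal, Ttr to -0.17 with the mean of its probes, and with 1 array left out Iyd lay between -0.14 and 0.012 (without soy 3), Crym between -0.42 and 0.11 (without soy 3, and 0.070 without control 2), Foxe1 between -0.071 (without soy 3) and 0.38, and Slc26a4 between -0.060 (without control 3) and 0.31. Outside these pairs, the genes that turned without control 2 included Slco1a4 (from -0.14 to 0.31), Sephs2 (from -0.043 to 0.068), Rxra (to 0.021) and Slc10a1 (to -0.00084). The dimmest Thra probe turned to 0.0072 and the dimmer Thrb probe to 0.068 without that array. The cause of these turns was not tested. By adjusted p alone, with the settings otherwise as reported, 198 probes, 0 of the 7 genes and 1 gene of the lists passed. Same-numbered control and soy arrays deviated together with correlations of 0.12, -0.061 and 0.097, where arrays of unlike number had correlations between -0.21 and 0.11. Control 1 and soy 1 share a slide, as do control 3 and soy 3, so these correlations cannot show whether the numbers pair the mice. With the replicate number as a block, 78 probes and 2 genes of the lists, Rxrg and Thrsp (-1.92, adjusted p = 0.0487, without the pair of control 1), passed, and none of the 7 thyroid hormone genes did. For Dio3, whose signal lay near background, the difference was between -0.82 with the processed signal and -0.011 with the 75th-percentile shift.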
